A study of Mus musculus with 24 samples.

Results

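Levels of 9 imprinted genes that belong to a network of growth regulators (H19, Meg3, Dlk1, Peg3, Mest, Plagl1, Cdkn1c, Grb10 and Ndn) were examined in differentiating brite adipocytes after knockdown (KD) of the long noncoding RNA Ctcflos. The genes were chosen by name, and all 9 were found among the 52089 gene symbols of the transcript table. Each gene is represented by its RefSeq transcript with the highest mean RPKM (reads per kilobase of transcript, scaled to the mapped reads of the library) over the 24 libraries. The cells were primary preadipocytes from the stromal vascular fraction of inguinal white fat of 129SvEv mice (129S6sv/ev in the study's methods), males aged 5 to 6 weeks per those methods. They were induced for 2 days, differentiated for 1 day with rosiglitazone, which turns white fat cells towards a heat-producing (brite) state, and then reverse transfected with a gapmer at 50 nM, an antisense oligonucleotide with locked nucleic acid ends that leads its target RNA to cleavage. The gapmer was directed at Ctcflos in KD and was nontargeting in NC, and RNA was harvested 24 h or 72 h later, so that cells of all 4 groups, KD and NC at 24 h and KD and NC at 72 h with 6 libraries each, had received an oligonucleotide and rosiglitazone. A single gapmer stands for the knockdown in these libraries, and whether fat pads of several mice were pooled is not stated in the sources used here.

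Imprinted genes are expressed mainly from the maternal or the paternal copy, as set by DNA methylation laid down in the germ line. Many of them act on growth. H19 and Meg3 are maternally expressed noncoding RNAs, Cdkn1c (p57) and Grb10 are growth inhibitors expressed largely from the maternal copy, and Dlk1, Peg3, Mest, Plagl1 and Ndn are paternally expressed. Dlk1 (Pref-1) marks preadipocytes and holds back fat differentiation, Mest rises in growing white fat, Grb10 is an adaptor that restrains insulin and IGF receptor signalling, and Ndn (necdin) restrains proliferation and adipogenesis. Plagl1 encodes a zinc finger protein that activates other imprinted genes.

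The 9 genes lie on chromosomes 6, 7, 10, 11 and 12 (positions in GRCm38, GENCODE M21). H19 (chr7:142575529-142578143) and Cdkn1c (chr7:143458339-143461050), both on the minus strand, stand in the distal imprinted region of chromosome 7. Peg3 (chr7:6703892-6730431, minus strand) and Ndn (chr7:62346569-62350262, plus strand) lie elsewhere on that chromosome. Dlk1 (chr12:109452823-109463336) and Meg3 (chr12:109541001-109571726) are neighbours on the plus strand. Mest (chr6:30723547-30748465, plus strand), Plagl1 (chr10:13060504-13131694, plus strand) and Grb10 (chr11:11930508-12038683, minus strand) each lie in a region of their own. H19 and Meg3 are annotated as long noncoding and the other genes as protein coding.

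Sequence upstream of annotated transcript starts (RefSeq, GRCm38.p6) was matched by symbol for 7 of the 9 genes, with 11 windows of 250 bases; H19 and Cdkn1c were not matched. Of the 2 Grb10 and 3 Mest windows, the 1 richest in CG and outside annotated exons is shown for each, because both genes were lower in KD at 24 h and because imprinted promoters are known for their CpG islands. Every CG is in capitals. The Grb10 window is chr11:12037421-12037670 on the minus strand, and the Mest window is chr6:30737800-30738049 on the plus strand.
Grb10: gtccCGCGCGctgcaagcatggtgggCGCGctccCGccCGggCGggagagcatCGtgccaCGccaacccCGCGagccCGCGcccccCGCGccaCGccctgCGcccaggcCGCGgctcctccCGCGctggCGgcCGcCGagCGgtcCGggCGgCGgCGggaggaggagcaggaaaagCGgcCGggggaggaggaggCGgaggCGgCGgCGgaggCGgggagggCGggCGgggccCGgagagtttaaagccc
Mest: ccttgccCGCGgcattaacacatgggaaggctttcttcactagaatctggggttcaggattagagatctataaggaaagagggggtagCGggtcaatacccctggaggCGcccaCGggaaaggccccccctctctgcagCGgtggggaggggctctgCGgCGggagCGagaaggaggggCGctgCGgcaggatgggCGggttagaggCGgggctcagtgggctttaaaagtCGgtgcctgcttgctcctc
The Grb10 window shown held 40 CG and was 81.2% G or C, and the Mest window shown held 14 CG at 62.4%. The other Grb10 window held 8 CG at 54.0%, and the other Mest windows held 7 CG at 60.8% and 14 at 62.0%, the last overlapping the window shown. Over all 32851 windows of this length the median was 6 CG and 52.4% G or C. The letters GGGGCCCC, the core recognised by the Plagl1 protein and the same on both strands, were found in 292 windows (0.889%). Among the 11 windows of these genes they were found in that of Peg3, here in capitals, in the 238 bases of chr7:6730432-6730669 (minus strand) that lie before the annotated first exon.
Peg3: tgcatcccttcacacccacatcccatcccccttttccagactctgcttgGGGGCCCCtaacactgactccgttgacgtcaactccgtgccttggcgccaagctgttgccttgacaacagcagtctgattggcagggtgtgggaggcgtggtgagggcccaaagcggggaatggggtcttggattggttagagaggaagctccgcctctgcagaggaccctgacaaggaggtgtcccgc
A match of these letters is a description of the sequence and not a bound site.

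The median library held 4009997 mapped reads, as recovered from the steps of the RPKM values. The recovered totals ran from 1391827 (KD 24 h replicate 6) to 5926053 (NC 72 h replicate 6). The highest total is uncertain: only 14.85% of the read numbers recovered for NC 72 h replicate 6 were odd, while no other library fell below 54.39%. Its reads may be overstated, and the next highest total was 5423847 (NC 24 h replicate 2). For a transcript of 2 kb, 3 reads are worth 0.253 to 1.08 RPKM. The lower value rests on the uncertain total, and in NC 24 h replicate 2 it was 0.277. Such limits cover counting error only. Means of reads over the 24 libraries include the uncertain library. Replicates 2 and 3 of NC 72 h differed by less than the sampling noise, and their mean entered as 1 sample (n = 5 for that group). After removal of the group means, 16 libraries clustered together and the other 8, the smaller cluster, held 2 libraries of every group (KD 24 h replicates 3 and 4, NC 24 h replicates 5 and 6, KD 72 h replicates 5 and 6, NC 72 h replicates 4 and 5). The targeted RNA, Ctcflos (1300015D01Rik, NR_040321), ranged from 0.00 to 0.62 RPKM in KD 24 h against 0.18 to 1.38 in NC 24 h, and from 0.00 to 0.52 in KD 72 h against 0.89 to 1.75 in NC 72 h. KD was at 25.5% of NC at 24 h (two-sided exact permutation test over samples, p = 0.045) and at 18.8% at 72 h (p = 0.0043), adjusted 0.045 and 0.0087 over 2 tests. The KD levels were near the limit of detection, with 2 libraries at 0 at each time, so the percentages are rough. The study's gapmers were directed at particular Ctcflos transcripts, and whether this entry measures the targeted one was not tested. In these bulk samples, fewer cells that express a gene and less RNA per cell cannot be told apart.

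The cells expressed these genes at very different levels. In deposited RPKM of the RefSeq transcripts, NC 24 h cells held most of Ndn, with 20.4 ± 2.62 (SD, n = 6), followed by Grb10 with 9.85 ± 1.49, Cdkn1c with 8.75 ± 1.54 and Mest with 5.54 ± 2.73. Meg3 stood at 2.70 ± 0.817 and H19 at 1.58 ± 0.548. Other entries of Meg3 were higher. A cDNA entry of 247 bases had a median of 51.95 RPKM in NC 24 h (36.8 to 101.91), and 1 of 3198 bases had a mean of 10.7 over the 24 libraries. The place of Meg3 in this order is that of the RefSeq transcript used. Dlk1 (0.687 ± 0.319), Peg3 (0.361 ± 0.25) and Plagl1 (0.271 ± 0.162) were near the limit of detection. The range of Ndn, 16.6 to 22.9, did not overlap that of Grb10, 8.23 to 12.3, whereas each later gene in this order overlapped its neighbour. Because reads come from the 3′ ends of transcripts, division by transcript length lowers the RPKM of long transcripts such as Peg3 (6624 bases) relative to short ones such as Ndn (1652 bases), and the order is read with that in mind. In reads of the RefSeq transcripts used, the mean over the 24 libraries was 183 for Grb10 and 163 for Ndn, 72.7 for Cdkn1c, 32.0 for Mest, 28.7 for Meg3, 11.6 for H19, 8.88 for Dlk1, 7.92 for Peg3 and 5.5 for Plagl1. The Meg3 transcript used has 1913 bases and a mean of 3.72 RPKM. Another RefSeq entry of Meg3, of 11422 bases, had a mean of 3.19 RPKM over the 24 libraries. At that length it is worth more reads, so the place of Meg3 in the order of reads depends on the entry.

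**Figure D1:**
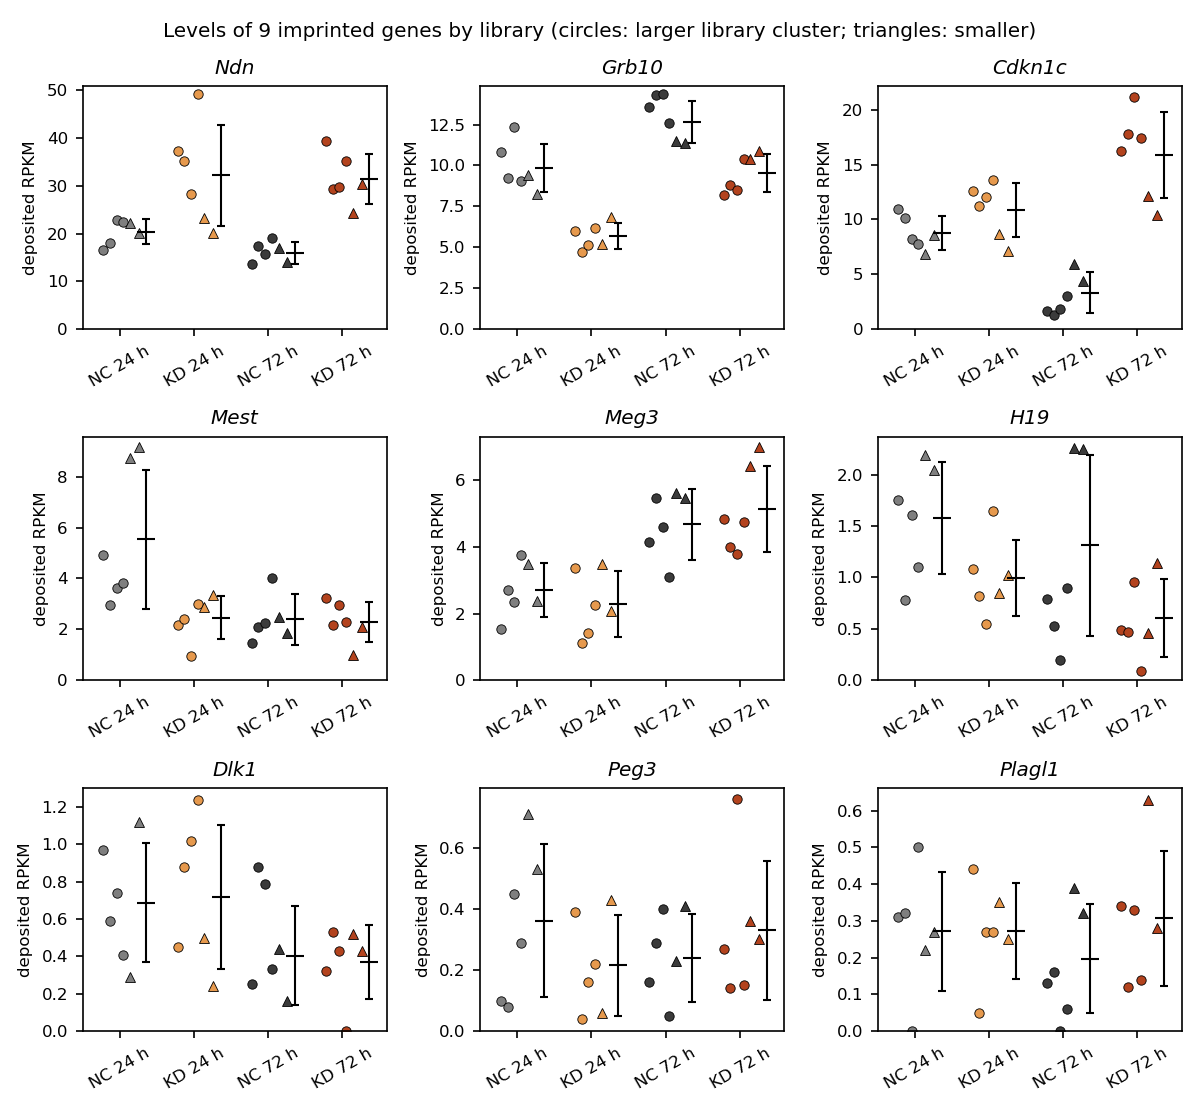
Deposited RPKM (vertical axes, linear from 0) of the 9 genes in the 24 libraries, by group. Circles are libraries of the larger cluster and triangles of the smaller cluster, and the bar beside them is the mean ± SD over samples (n = 6; n = 5 in NC 72 h). Ndn and Cdkn1c lie higher and Grb10 lower in KD 72 h than in NC 72 h without overlap (as for 17.2% of all entries), and the bottom row is at or below 1.24 RPKM throughout.

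At 24 h, KD cells held less Grb10 and Mest and more Ndn than NC cells. Of the 9 genes, 7 passed the filter on low values, which asks for 10 reads in enough samples. Of these, 1 was called higher and 2 were called lower by limma at an adjusted p under 0.05, against a background of 22.6% of the 51795 transcript entries tested (11.0% higher and 11.6% lower). H19, Meg3, Dlk1 and Cdkn1c were tested and not called, and Peg3 and Plagl1 did not pass the filter. With so large a share of all entries called, the count over these genes is no result of its own, and the genes are described one by one. Fold changes are differences of log2(scaled RPKM + 0.1) with their SE, KD minus NC, and understate the change of low genes.

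At 72 h, KD cells held more Cdkn1c and Ndn and less Grb10 than NC cells. Of the 9 genes, 5 passed the filter. Of these, 2 were called higher and 1 lower, and Meg3 and Mest were not called, against 22.2% of 54317 entries (10.3% higher and 11.9% lower). The RefSeq transcripts of H19, Dlk1, Peg3 and Plagl1 did not pass the filter of the main fit and were compared by exact permutation. The scale matters at this time: on deposited RPKM without scaling the median of all entries was 0.25 higher in KD on the log2 scale and 81.1% of the calls were higher, against 46.2% after scaling. The 3 calls on these genes held on both scales, with Grb10 at -0.41 (adjusted p = 0.036) on deposited RPKM.

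**Figure D2:**
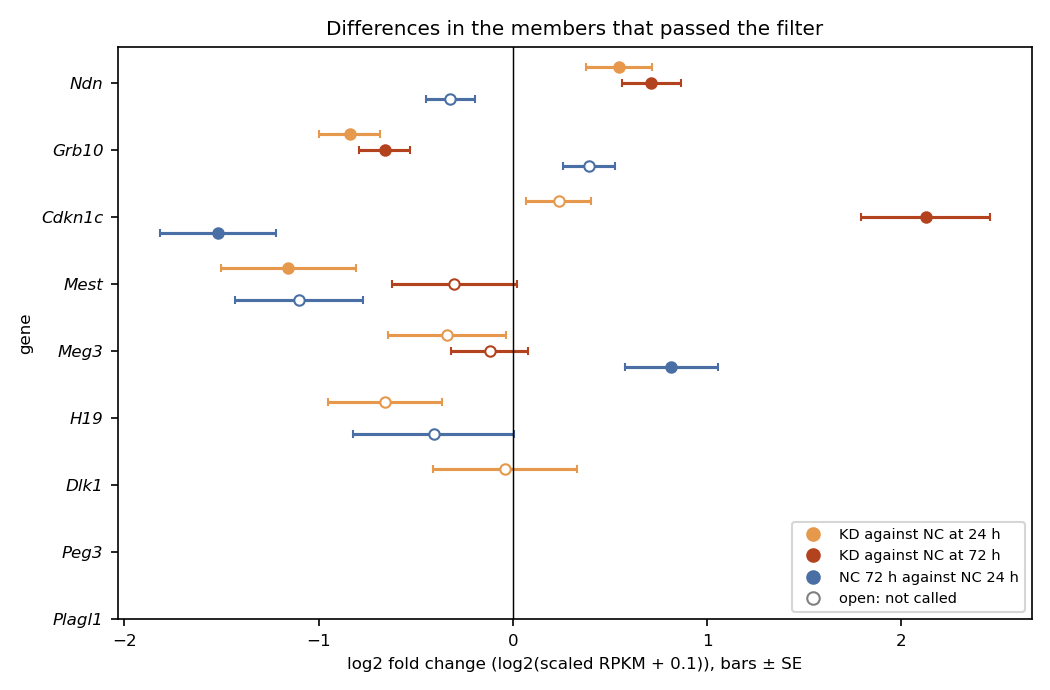
Log2 fold change ± SE (horizontal axis) of the genes that passed the filter in each comparison; filled points were called at an adjusted p under 0.05 and open points were not. Ndn lies to the right and Grb10 to the left of 0 at both times of knockdown, Cdkn1c stands at 2.13 at 72 h and 0.24 at 24 h, and Peg3 and Plagl1 have no point because they did not pass the filter.

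Cdkn1c encodes p57, an inhibitor of cyclin-dependent kinases that takes cells out of the cycle. In NC 24 h it ranged from 6.83 to 11.0 RPKM with a median of 8.38, and in KD 24 h from 7.11 to 13.6 with a median of 11.6. The groups at 24 h overlapped, and the difference of 0.24 ± 0.17 was not called (adjusted p = 0.32). In NC 72 h the samples held 1.63 (replicate 1), 1.56 (the mean of replicates 2 and 3), 5.93 (replicate 4), 4.41 (replicate 5) and 3.01 (replicate 6). In KD 72 h they ranged from 10.4 to 21.2 with a median of 16.8. Every KD 72 h library stood above every NC 72 h library, and the scaled level was 4.37-fold that of NC on the fitted scale (log2 fold change 2.13 ± 0.33, adjusted p = 0.00056). Groups without overlap were found for 17.2% of all entries at 72 h.

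The value of this difference was higher in the larger library cluster than in the smaller, and whether the clusters differ in it was not tested. Within the larger cluster it was 2.92 ± 0.24 (adjusted p = 1.6e-05), and within the smaller cluster, with 2 libraries a group, it was 0.80 and not called (adjusted p = 0.10). The NC 72 h libraries of the smaller cluster, replicates 4 and 5, were the highest of their group, and the KD 72 h libraries of that cluster, replicates 5 and 6, were the lowest of theirs. What sets the clusters apart was not tested. All 5 transcript entries of Cdkn1c were called higher at 72 h, from 2.13 to 2.15, and these entries share reads.

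Cdkn1c also fell in control cells between the times, from a scaled mean of 8.68 ± 1.52 (SD, n = 6) in NC 24 h to 3.33 ± 1.84 (n = 5) in NC 72 h (log2 fold change -1.52 ± 0.30, adjusted p = 0.0052). The ranges did not overlap, which held for 7.37% of all entries. The drop was -2.12 within the larger cluster (adjusted p = 0.00055) and -0.59 within the smaller (adjusted p = 0.30). KD 72 h samples, with a mean of 15.9 ± 3.95 RPKM, showed no such low level. In the interaction term over all 4 groups, the knockdown difference at 72 h exceeded that at 24 h by 1.90 ± 0.38 (adjusted p = 0.034), where 0.192% of 59317 entries were called in either direction. This comparison, the difference at 72 h and the change in control cells share the NC 72 h samples and are not independent. The interaction is close to the threshold: leaving out any 1 of KD 24 h replicate 3, NC 24 h replicates 1, 2 and 4, KD 72 h replicates 1, 2, 3 and 4, NC 72 h replicate 1, or the shared NC 72 h sample gave 1.70 to 1.93 with an adjusted p of 0.05 to 0.074. Within the smaller cluster it was 0.74 (adjusted p = 0.33).

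Grb10, the adaptor that dampens insulin and IGF receptor signalling, was lower in KD at both times. At 24 h, NC libraries ranged from 8.23 to 12.3 RPKM with a median of 9.32, and KD libraries from 4.69 to 6.84 with a median of 5.59. The groups did not overlap, as for 11.1% of all entries at 24 h, and the log2 fold change was -0.84 ± 0.16 (adjusted p = 0.0026). At 72 h, the NC samples held 13.6 (replicate 1), 14.3 (replicates 2 and 3), 11.5 (replicate 4), 11.4 (replicate 5) and 12.6 (replicate 6), and the KD libraries ranged from 8.22 to 10.9 with a median of 9.58. Again no KD library reached an NC sample, and groups without overlap were found for 17.2% of all entries at 72 h (-0.66 ± 0.13, adjusted p = 0.0026 for Grb10). The difference at 72 h minus that at 24 h was 0.19 ± 0.19 and not called (adjusted p = 0.73). In control cells Grb10 rose by 0.39 ± 0.13, which was not called (adjusted p = 0.081), although without NC 24 h replicate 3 the value was 0.46 with an adjusted p of 0.048. With the library cluster as a covariate it was called (0.41, adjusted p = 0.033), but not within the larger (0.43, 0.13) or the smaller cluster (0.36, 0.44). Of the 9 tested entries, 2 were called higher over time.

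Entries of Grb10 differed in the size of the drop. At 24 h, 8 of the 9 tested entries were called lower. The cDNA entry AK032927 was lower by a log2 fold change of -1.79 ± 0.49 (adjusted p = 0.018), with 0.23 to 3.90 RPKM in KD 24 h and 4.42 to 7.83 in NC 24 h. AK017862 and AK079122 stood at -0.54 each (adjusted p = 0.046 and 0.043). At 72 h the 9 entries lay between -0.74 and -0.55, and 8 were called. Whether the entries differ from each other was not tested. Within clusters the difference of the RefSeq transcript at 24 h was -1.01 in the larger (adjusted p = 0.0044) and -0.54 in the smaller cluster (0.24), and at 72 h -0.80 (0.005) and -0.43 (0.25).

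Ndn, whose RefSeq transcript had the highest RPKM of the 9, was higher in KD at both times. At 24 h it ranged from 16.6 to 22.9 RPKM with a median of 21.2 in NC and from 20.1 to 49.2 with a median of 31.7 in KD. The KD libraries spread widely, those of replicates 3 and 4 (23.4 and 20.1) lay near the NC libraries, and these are the KD 24 h libraries of the smaller cluster. The log2 fold change was 0.55 ± 0.17 (adjusted p = 0.032). The larger cluster gave 0.77 (adjusted p = 0.01), the smaller 0.05 (0.90). Without the filter on low values the call was lost (0.53, adjusted p = 0.059). Leaving out KD 24 h replicate 1 or 2, or NC 24 h replicate 1, 2 or 6, gave 0.51, 0.51, 0.49, 0.50 and 0.55 with adjusted p-values of 0.054 to 0.072, so the call at 24 h rests on each of them.

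At 72 h Ndn was also called. The NC samples held 13.5 (replicate 1), 16.5 (replicates 2 and 3), 16.9 (replicate 4), 13.96 (replicate 5) and 19.1 (replicate 6), and KD libraries ranged from 24.3 to 39.5 with a median of 30.1. The groups did not overlap, as for 17.2% of all entries at 72 h, and the log2 fold change was 0.71 ± 0.15 (adjusted p = 0.0043). It stayed past the threshold without any single library (0.65 to 0.80), whereas within the smaller cluster it was 0.49 (adjusted p = 0.15). The difference at 72 h minus that at 24 h was 0.18 ± 0.23 and not called (adjusted p = 0.81). All 7 entries of Ndn were called higher at both times. In control cells the change over time was -0.32 ± 0.13 and not called (adjusted p = 0.14).

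Mest, also called Peg1, encodes a hydrolase-like protein of the endoplasmic reticulum whose expression follows fat mass expansion. In NC 24 h replicates 1 to 4 held 4.93, 2.94, 3.64 and 3.81 RPKM, and replicates 5 and 6, the libraries of the smaller cluster, held 8.76 and 9.16. In KD 24 h Mest ranged from 0.95 to 3.35 with a median of 2.63. The groups overlapped only through NC 24 h replicate 2, which stood below KD 24 h replicates 4 and 6. The log2 fold change was -1.16 ± 0.35 (adjusted p = 0.028), with -1.01 in the larger cluster, where it was not called (adjusted p = 0.05), and -1.48 in the smaller (adjusted p = 0.022). Without the filter on low values it was -1.17 and not called (adjusted p = 0.058). Without KD 24 h replicate 1 or 5, or NC 24 h replicate 5 or 6, it was -1.12, -0.92, -0.998 and -0.984 with adjusted p-values of 0.055 to 0.063. All 6 tested entries of Mest were called lower, from -1.17 to -1.10.

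At 72 h Mest no longer stood apart. NC 72 h samples held 1.44, 2.16, 2.47, 1.85 and 4.03 RPKM (replicate 1, replicates 2 and 3, replicates 4, 5 and 6), and KD libraries ranged from 1.00 to 3.24 with a median of 2.22. The difference was -0.30 ± 0.32 (adjusted p = 0.54), and its difference from 24 h, 0.87 ± 0.50, was not called (adjusted p = 0.52). In control cells Mest went from a scaled mean of 5.52 ± 2.77 to 2.41 ± 1.01 (-1.10 ± 0.33, adjusted p = 0.053). That value lies at the threshold: it passed without NC 24 h replicate 2 (-1.26, adjusted p = 0.033) or NC 72 h replicate 6 (-1.31, adjusted p = 0.027), and within the smaller cluster (-2.04, adjusted p = 0.0068), but not within the larger (-0.62, adjusted p = 0.32). It also passed with the library cluster as a covariate (-1.14, adjusted p = 0.02).

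**Figure D3:**
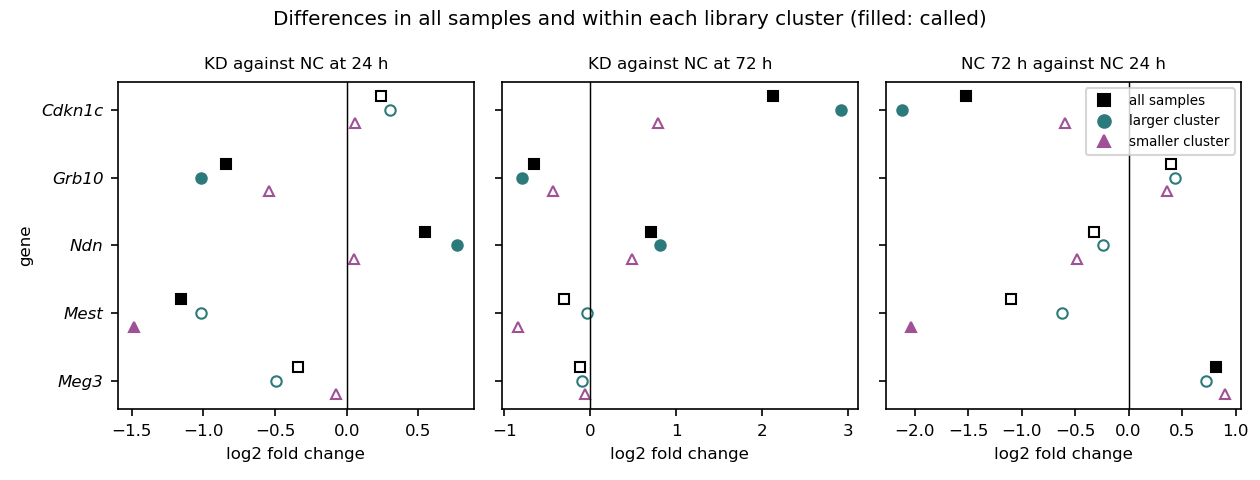
Log2 fold change (horizontal axes, own range in each panel) of the 5 most abundant genes over all samples (squares), within the larger cluster (circles) and within the smaller cluster (triangles); filled symbols were called. Cdkn1c at 72 h stands at 2.92 in the larger and 0.80 in the smaller cluster, and Ndn at 24 h at 0.77 and 0.05.

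Meg3 and Dlk1, the noncoding and the coding gene of 1 imprinted cluster, were not called different between KD and NC at either time. Meg3 ranged from 1.12 to 3.48 RPKM in KD 24 h and from 1.54 to 3.75 in NC 24 h (-0.34 ± 0.30, adjusted p = 0.43). At 72 h it ranged from 3.8 to 7.01 in KD and from 3.09 to 5.63 in NC (-0.12 ± 0.20, adjusted p = 0.71; on deposited RPKM the sign turned, 0.13). None of the 9 and 10 entries of Meg3 tested at these times was called, and 0 of them had an unadjusted p under 0.05 (limma). The NC group rose over time, from a scaled mean of 2.68 ± 0.81 (n = 6) to 4.72 ± 1.05 (n = 5), a log2 fold change of 0.82 ± 0.24 (adjusted p = 0.048, background 9.07% of 52670 entries, 4.58% higher and 4.48% lower). Of the 9 Meg3 entries tested over time, 8 were called higher, from 0.80 to 1.07 over all 9. The call on the RefSeq transcript was lost without any 1 of NC 24 h replicates 1, 2, 3 and 6, NC 72 h replicates 1, 4 and 5, or the shared sample of NC 72 h (0.68 to 0.85, adjusted p from 0.076 to 0.11), on deposited RPKM (0.79, adjusted p = 0.056), and within the larger (0.72, 0.21) and the smaller cluster (0.90, 0.17).

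Dlk1 ranged from 0.24 to 1.24 RPKM in KD 24 h and from 0.29 to 1.12 in NC 24 h, at 5 to 22 reads a library. The difference of -0.04 ± 0.37 was within the error (adjusted p = 0.95), and its sign turned on deposited RPKM (0.013). At 72 h it ranged from 0.00 to 0.53 in KD and from 0.16 to 0.84 in NC, with means of 0.371 and 0.405 (exact permutation p = 0.83, adjusted 0.93 over 9 tests). Means of control cells were 0.687 at 24 h and 0.405 at 72 h, a difference not larger than the spread (exact permutation p = 0.14, adjusted 0.64). A change of Dlk1 was not detectable at this depth. The neighbours Rtl1, Mirg and Dio3 did not pass the filter in any comparison, and Rian, a noncoding RNA downstream of Meg3, was tested at 72 h only for knockdown and not called (0.75 ± 0.32, adjusted p = 0.11).

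H19, the noncoding RNA next to Igf2, was low. In NC 24 h it ranged from 0.78 to 2.19 RPKM (11 to 29 reads) and in KD 24 h from 0.55 to 1.65 (6 to 14 reads). The groups overlapped, and the difference of -0.66 ± 0.29 was not called (unadjusted p = 0.041, adjusted p = 0.12). The other tested entries, AK003142 and AK145379, gave -0.68 each (adjusted p = 0.10). At 72 h NC held 0.79, 0.37, 2.26, 2.25 and 0.90 RPKM, with the high values in replicates 4 and 5, which belong to the smaller cluster. KD 72 h ranged from 0.09 to 1.14, and the mean of 0.602 against 1.31 in NC gave an exact permutation p of 0.14 (adjusted 0.64). Without the shared NC 72 h sample, H19 passed the filter and was called lower (-1.53 ± 0.49, adjusted p = 0.044); without NC 72 h replicate 1 or 6 it passed and was not called (-1.30 and -1.25, adjusted p = 0.12 and 0.13). With no filter on low values the difference was -1.18 ± 0.56 (adjusted p = 0.26), and in the smaller cluster alone it was -1.80 ± 0.49 (adjusted p = 0.051), neither called. Igf2, the growth factor expressed from the other parental copy, had group means of 0.176 to 0.394 RPKM and did not pass the filter.

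The RefSeq transcripts of Peg3, a zinc finger protein, and of Plagl1 were too low for the fits at 24 h, at 72 h and over time. In the fit over all 4 groups Peg3 passed and the knockdown difference at 72 h minus that at 24 h was 0.72 ± 0.65 (adjusted p = 0.70). Peg3 means were 0.215 RPKM in KD 24 h and 0.361 in NC 24 h (exact permutation p = 0.26), and 0.330 and 0.240 at 72 h (p = 0.51). The longer Peg3 entry ENSMUST00000051209 passed the filter and was not called (-0.13 ± 0.35 at 24 h and -0.08 ± 0.25 at 72 h, adjusted p = 0.81 and 0.85). Plagl1 means were 0.272 and 0.271 RPKM at 24 h (exact permutation p = 0.99) and 0.307 in KD and 0.197 in NC at 72 h (p = 0.32). Over time in control cells both had lower means at 72 h, 0.240 for Peg3 (exact permutation p = 0.36) and 0.197 for Plagl1 (p = 0.44). After adjustment over the 9 tests on genes below the filter, the smallest p was 0.64.

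**Figure D4:**
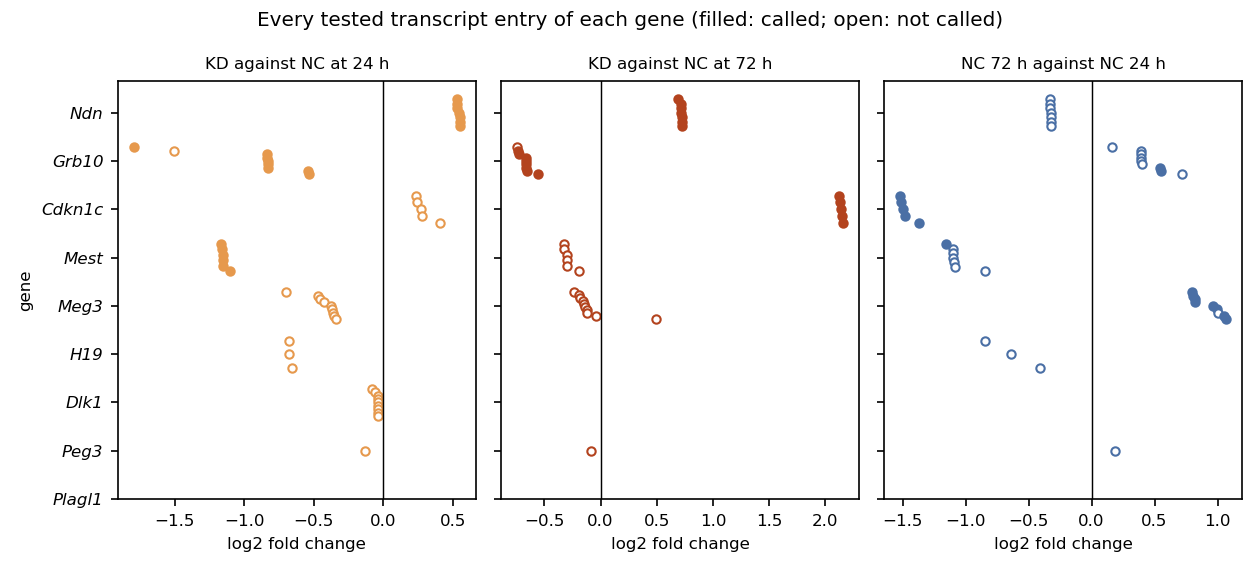
Log2 fold change (horizontal axes, own range in each panel) of every tested transcript entry of each gene; filled points were called. All 7 entries of Ndn lie together to the right of 0 in both knockdown panels, all 5 of Cdkn1c near 2.1 at 72 h, and those of Grb10 spread from -1.79 to -0.54 at 24 h; entries of 1 gene share reads.

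A wider list of 54 other imprinted genes was then examined, of which 52 were in the table. Expression from each parental copy was not measured, so whether these genes are imprinted in these cells was not tested. Most were scarcely expressed: 31 had a mean below 1 RPKM, and 3 (Zim2, Th and Ins2) were at 0 in all 24 libraries. At 24 h, 20 passed the filter, 2 were called higher and 5 lower, and their median log2 fold change was -0.10, against -0.01 over all entries, of which 22.6% were called. At 72 h, 24 passed, 3 were called in each direction, and the median was 0.10 against 0.01 over all entries, of which 22.2% were called. The genes called lower at both times were Trappc9 (-1.92 ± 0.20 at 24 h and -1.59 ± 0.38 at 72 h, adjusted p = 6.5e-05 and 0.0085), Commd1 (-0.82 ± 0.16 and -0.94 ± 0.09, adjusted p = 0.0037 and 1.9e-05) and Copg2, the neighbour of Mest (-0.91 ± 0.26 and -0.82 ± 0.15, adjusted p = 0.023 and 0.0019). Trappc9 belongs to a vesicle tethering complex, Commd1 takes part in copper handling and NF-kappa-B turnover, and Copg2 is a coat protein of Golgi vesicles.

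At 72 h, Nnat, a small membrane proteolipid, was higher in KD by 2.51 ± 0.65 (adjusted p = 0.013), and Slc38a4, an amino acid transporter, by 1.28 ± 0.28 (adjusted p = 0.0056). Gnas, whose locus encodes the stimulatory G protein subunit that carries the signal of adrenergic receptors, was slightly higher at both times (0.38 ± 0.10 and 0.42 ± 0.08, adjusted p = 0.019 and 0.0025). The entry used is a noncoding RefSeq transcript of that locus, and whether the coding mRNA changed was not tested here. Osbpl5, in the region of H19 and Cdkn1c, was lower at 24 h (-0.96 ± 0.23, adjusted p = 0.0088) and stood at -0.04 ± 0.22 at 72 h. It was the only 1 of the 5 tested genes of that region called for knockdown at 24 h, and 0 of 5 were called at 72 h (0 with an unadjusted p under 0.05, limma). Blcap was lower at 24 h (-0.64 ± 0.15, adjusted p = 0.0075) and stood at -0.02 ± 0.16 at 72 h, and the difference between the times was not called for Blcap or Osbpl5 (adjusted p = 0.21 each). Over time in NC, 21 genes were tested. Commd1 was higher (0.28 ± 0.08, adjusted p = 0.046), and Trappc9 (-0.55 ± 0.16, adjusted p = 0.043) and Dhcr7 (-0.42 ± 0.11, adjusted p = 0.031) were lower. Beside Ndn, 3 genes of its region were tested, and Snrpn was called higher at 24 h (0.52 ± 0.15, adjusted p = 0.027) but not at 72 h (0.24 ± 0.15, adjusted p = 0.30). No gene of the Peg3 and Grb10 regions passed the filter. Igf2r, whose reads per library were not recovered, passed the stricter filter for such entries only in the fit over all 4 groups, and its group means were 15.3 to 28.2 RPKM.

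**Figure D5:**
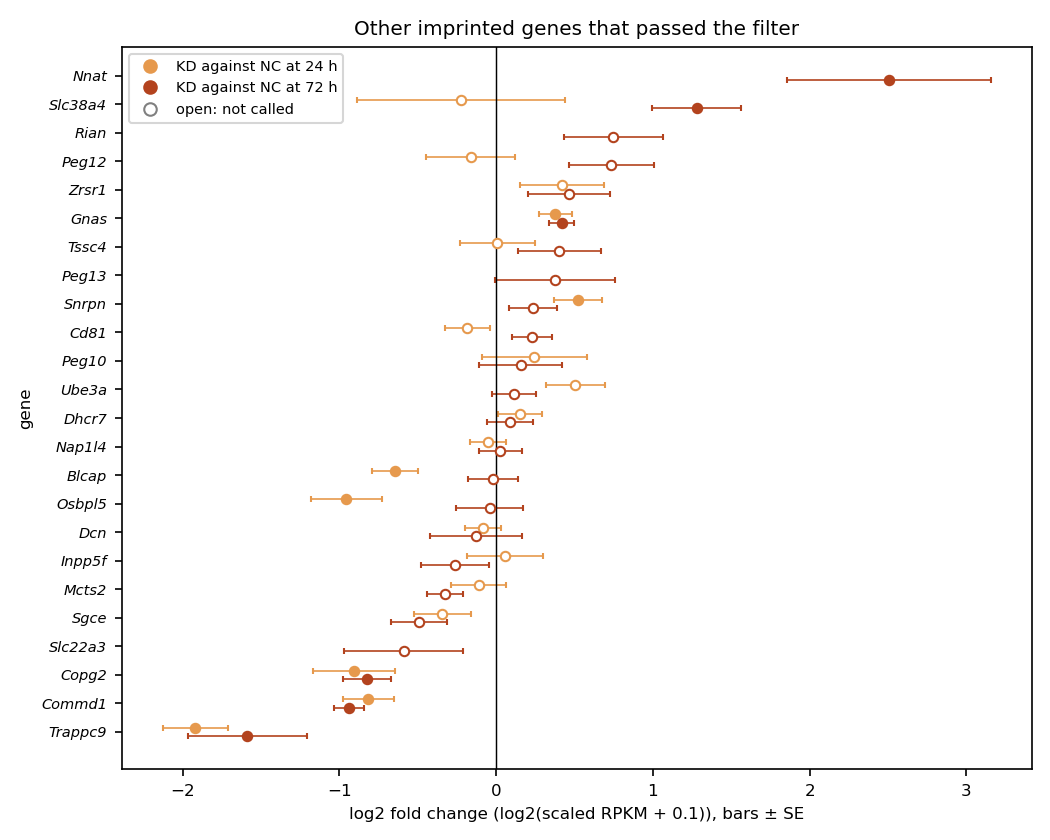
Log2 fold change ± SE (horizontal axis) of the other imprinted genes that passed the filter, KD against NC at 24 h and 72 h; filled points were called and open points were not. Trappc9, Commd1 and Copg2 lie to the left of 0 at both times, and Nnat is farthest to the right at 72 h with 2.51.

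Genes that work with the members were counted from fixed lists. Of 12 insulin and IGF receptor signalling partners of Grb10, 11 were tested at 24 h with 2 called higher and 4 lower, and 12 at 72 h with 1 higher and 2 lower, beside 22.6% and 22.2% of all entries called at these times. Igf1r, the IGF receptor itself, was lower at both times (-0.89 ± 0.26 and -1.29 ± 0.32, adjusted p = 0.024 and 0.01), and Akt1, a kinase downstream, was higher (0.58 ± 0.17 and 0.43 ± 0.12, adjusted p = 0.023 and 0.021). Igf1r was near the limit of detection, with scaled means of 0.26 RPKM in KD 24 h and 0.58 in NC 24 h. At 72 h they were 0.30 in KD and 0.85 in NC. Of 14 CDK inhibitors and cyclins, 12 were tested at each time. At 24 h 4 were higher and 2 lower, and at 72 h 3 were higher and 1 lower. The inhibitors Cdkn1a (p21) and Cdkn2b (p15) were called higher at both times. Cdkn1a was higher by 0.45 ± 0.12 at 24 h and 0.86 ± 0.12 at 72 h (adjusted p = 0.019 and 0.00018), and Cdkn2b by 0.94 ± 0.23 and 0.73 ± 0.13 (adjusted p = 0.011 and 0.0014). Ccnd2, a G1 cyclin, was lower at both times (-0.74 ± 0.13 and -0.40 ± 0.09, adjusted p = 0.002 and 0.0045). Other called genes of this list went the other way. At 24 h Cdk2 (0.60 ± 0.17, adjusted p = 0.023) and the cyclin Ccna2 (0.47 ± 0.16, adjusted p = 0.048) were higher. The inhibitor Cdkn2c was lower at 24 h (-0.44 ± 0.13, adjusted p = 0.026), and Cdk4 was higher at 72 h (0.35 ± 0.10, adjusted p = 0.021). In control cells over time, Cdkn2c fell by 0.84 ± 0.11 (adjusted p = 0.00032) and Cdkn1b rose by 0.47 ± 0.10 (adjusted p = 0.0057).

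Markers of cell types were counted in the same way, beside 22.6% of all entries called at 24 h (11.6% lower) and 22.2% at 72 h (11.9% lower). The 8 adipocyte markers were all expressed, at 28200 to 54600 RPKM in sum. Most of that sum was Fabp4, with scaled means of 26030 in KD 72 h and 38840 in NC 72 h. In KD 4 of the 8 were called lower at each time, among them Adipoq (-0.55 ± 0.15 and -0.96 ± 0.15, adjusted p = 0.02 and 0.00066). Of 5 brite markers, 4 were lower at 24 h and 5 at 72 h, and their summed level was 425 to 847 RPKM in KD 72 h against 1210 to 1980 in NC 72 h. Of the stromal progenitor markers, 0 of 6 were called at 24 h (0 with an unadjusted p under 0.05, limma), and at 72 h Cd34 was higher by 2.02 ± 0.37 (adjusted p = 0.0015) and Col3a1 lower (-0.68 ± 0.20, adjusted p = 0.024). Their sums overlapped, at 1240 to 1470 RPKM in KD 72 h and 712 to 1660 in NC 72 h. Krt19, counted among the mesothelial markers, was higher by 1.06 ± 0.25 at 24 h and 2.54 ± 0.16 at 72 h (adjusted p = 0.0093 and 5.7e-07), and the sum of this list was 119 to 173 RPKM in KD 72 h against 19 to 37.9 in NC 72 h, most of it Krt19 (scaled means 140 and 23.7). Wt1, with scaled means of 1.40 in KD 72 h and 6.02 in NC 72 h, was not called (-1.50 ± 0.58, adjusted p = 0.079), Upk3b was at 0 in all libraries and Msln and Lrrn4 were below 1 RPKM on average. Macrophage markers summed to 3.15 to 30.6 RPKM, with Csf1r higher in KD at both times (1.22 and 1.23) and Lyz2 lower at 72 h (-3.68 ± 0.59, adjusted p = 0.00066). The 5 endothelial markers were all below 1 RPKM on average and not tested. Of the muscle markers, Myod1 and Pax7 were at 0 throughout, and Acta1 was lower at 72 h (-1.75 ± 0.53, adjusted p = 0.028). The part of these markers in the differences of Cdkn1c, Grb10, Ndn and Mest was not tested.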

How the data were processed

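RNA was read by bulk RNA barcoding and sequencing, which covers transcript 3′ ends, and the authors mapped them with the Genomatix suite. The genome build for these libraries and the handling of strand are not given in the sources used here. The authors deposited RPKM values for 168326 transcript entries (88340 GenBank, 48232 Ensembl and 31754 RefSeq) in 24 libraries, and 0 columns were left unused. Overlapping entries share reads. Read numbers were recovered from the RPKM steps, of which 95.5% to 96.2% per library were whole (tolerance 0.1 read). RPKM were scaled by trimmed means of log ratios (30% and 5% trimmed) and fitted as log2(RPKM + 0.1) with limma 3.58.1 (R 4.3.3). Entries needed 10 reads (median library) in at least the number of samples of the smaller group and 15 in total, or 19.95 RPKM where reads were not recovered. Adjusted p-values are Benjamini-Hochberg over all entries, two-sided, threshold 0.05. For genes below the filter, two-sided exact permutation tests of deposited RPKM were used (scipy 1.17.1). All 9 genes were named in every comparison. Of other lists, at most 4 called genes with the largest change were named. Beyond that rule, Igf2, Igf2r, Rian, Gnas, Blcap, Wt1, Smc1a and second-time values of named genes were given, chosen after their values were seen. The genes and lists were chosen with earlier results of these data known. Groups and replicate numbers come from sample titles; p-values measure the spread between these samples. The fit was tested on simulated data. Alternatives covered the filter, pseudocount, scaling, entry choice, replicate block, voom, library clusters and left-out libraries.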

Additional observations from a re-analysis of the deposited data

Results flagged for a closer look

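In the 36 groups of values examined (9 genes in 4 groups), 1 sample stood apart from the rest of its group, and chance alone would give about 1 in 20. It was Peg3 in KD 72 h replicate 3, at 0.76 RPKM against 0.36 RPKM in the nearest of the other libraries. The gap was 0.638 of the range of the group, and the value rests on 20 reads.

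The knockdown difference of Cdkn1c was 1.90 ± 0.38 larger on the log2 scale at 72 h than at 24 h (limma interaction term, adjusted p = 0.034). At 72 h each KD library was above each NC sample, where 17.2% of all entries had groups without overlap, whereas at 24 h the groups overlapped. The value was 2.61 in the larger cluster of libraries (adjusted p = 0.00038) and 0.74 in the smaller (adjusted p = 0.33). What the clusters stand for was not tested.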

How the results depend on the processing

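Counts of the 9 genes called were 3 at 24 h, 3 at 72 h, 2 over time in NC and 1 for the difference between the times. At 24 h the count was 1 without the filter on low values, with the replicate block, and in the smaller cluster of libraries alone, and 1 to 3 when single libraries were left out. At 72 h it was 0 in the smaller cluster and 3 to 4 with libraries left out. Over time in NC it was 1 without the filter and in either cluster alone, 4 with both shared libraries kept or with the cluster as a covariate, and 1 to 3 with libraries left out. For the difference between the times it was 0 with the replicate block and in the smaller cluster, and 0 to 1 with libraries left out. Same-numbered libraries did not deviate together (mean correlation -0.088 at 24 h, 0.021 at 72 h and 0.055 in NC), so the replicate block shares a number and no known origin; under it Mest (adjusted p = 0.065) and Ndn (0.075) lost their calls at 24 h, Meg3 (0.075) over time and Cdkn1c (0.10) between the times, while Mest over time gained one (0.042), and all entries called fell from 11720 to 8672 at 24 h and from 12074 to 8123 at 72 h. Over time in NC it gave 2884 against 4775, and for the difference between the times 28 against 114; the smaller cluster alone gave 1524 at 24 h. Signs turned for Dlk1 at 24 h (0.013 without scaling, 0.23 in the larger cluster, -0.22 to 0.17 with libraries left out, among them 0.06, 0.003, 0.172, 0.07 and 0.111), Dlk1 between the times (-0.526 to 0.07 with libraries left out, positive without KD 72 h replicate 4), Meg3 at 72 h (0.13 without scaling) and H19 over time (0.067 in the smaller cluster), none of them called. Of the other single-gene values, 598 kept their sign and their side of the threshold, 46 lost and 12 gained a call; the cause was not tested. Plagl1, Peg3, H19 and Dlk1, at under 12 reads in the mean library, are limited by depth.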

Other observations

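Of all entries, 22.6% were called at 24 h, 22.2% at 72 h and 9.07% over time in NC. Beside these shares, the counts of the lists below are no result of their own. Of 18 genes that maintain imprints or take part in CTCF and cohesin function, 14 were tested at 24 h. In KD 3 were called higher: Trim28, a corepressor that protects imprints (1.24 ± 0.22, adjusted p = 0.002), and the cohesin subunits Rad21 (0.86 ± 0.28, adjusted p = 0.036) and Smc3 (0.77 ± 0.20, adjusted p = 0.014). The cohesin subunit Smc1a had the opposite sign and was not called (-0.43 ± 0.17, adjusted p = 0.074). At 72 h 13 were tested and Trim28 alone was called (0.58 ± 0.15, adjusted p = 0.013). Over time in NC 0 of 14 were called, with 1 at an unadjusted p under 0.05 (limma). Of the 12 genes of the Notch pathway, to which Dlk1 is related, 6 were tested at 24 h and Notch2 was higher (0.54 ± 0.12, adjusted p = 0.0063). At 72 h 0 of 5 were called, with 1 at an unadjusted p under 0.05 (limma). In NC, Notch1 fell by 1.25 ± 0.30 over time (adjusted p = 0.016).

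The symbols whose levels ran most like each gene over the 23 samples were taken from 12666 that passed the filter, as a description in which all points share libraries and groups. For Grb10 they were Tmem45a (Pearson r = 0.95) and Rnf181 (0.94), for Ndn Cdt1 (0.92) and Prpf4 (0.91), and for Cdkn1c Rrp8 (0.88) and Arc (0.87). Meg3 ran most like Capns1 (0.89) and Serpinf1 (0.83), H19 like Mylk (0.82) and Actg2 (0.79), and Mest like Spice1 (0.79) and Mylk (0.78). The low genes had lower values, 0.74 with Guf1 for Dlk1 and 0.71 with Fnip2 for Peg3. Between members the highest were 0.67 for Cdkn1c with Ndn and 0.55 for H19 with Mest, and the lowest was -0.76 for Grb10 with Ndn.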
